A study of Rattus norvegicus with 12 samples.

Results

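The genes described here encode 10 chemokine ligands: Ccl19, Cxcl13, Ccl2, Ccl7, Ccl5, Cxcl1, Cxcl9, Cxcl10, Ccl11 and Cxcl12. Every gene probe whose symbol in the array annotation was one of these 10 names was taken, which gave 11 probes for 10 of the 26456 genes named on the array. All 11 probes were well above background on all 12 arrays and entered the tests.

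The lumbar mammary gland of female Wistar rats was measured at day 21 of life, when pups were weaned, and at day 28. Their dams had eaten 17.0% protein (NP, normal protein) or 8.8% protein (LP, low protein) during pregnancy, the latter a model of intrauterine growth restriction. Dams of both groups received standard chow after delivery and suckled litters of 6 female pups, and the young ate the same chow after weaning. One-colour arrays of total RNA were made from 3 NP and 3 LP rats at each day, 1 array per rat, from glands freed of the lymph nodes that could be seen. Arrays are named by group and by the replicate name of their label. A level is the log2 processed signal of a probe minus that of the 75th percentile of its array, so that 1 unit is a 2-fold step, and levels are compared between arrays for 1 probe at a time. Each day had a slide of its own, so day and slide cannot be told apart. On both slides the upper row held every NP array and 1 LP array, and the lower row the remaining LP arrays.

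Chemokines are small secreted proteins that bind to receptors on leukocytes and other cells and direct their movement along a gradient. Ccl19 and Cxcl13 are made by stromal and dendritic cells of lymphoid tissue and hold T and B cells in their zones, whereas inflammatory chemokines such as Ccl2, Ccl5 and Cxcl10 are induced by cytokines and draw monocytes, neutrophils or activated T cells into tissue. In the growing mammary gland, macrophages and eosinophils gather around the terminal end buds, and the eosinophil attractant Ccl11 and the macrophage growth factor Csf1 are known for their part in this recruitment.

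An LP array of day 21, replicate 6a, stood apart from the rest, with a median correlation of 0.960 to them where every other array had 0.974 to 0.989. Markers of B and T cells were low on it. The summed level of 7 B cell markers (the sum of their unlogged levels, each relative to the 75th percentile) was 0.0944, against 3.79 to 6.85 on the other arrays of the day, and that of 9 T cell markers was 0.323, against 13.5 to 18.0. Blk, Cr2 and Ms4a1 among the B cell markers, and Cd2, Cd28, Cd3e and Cd5 among the T cell markers, were not well above background on it, while 4 of 7 and 5 of 9 were, with Cd3d at -3.04 and Cd4 at -3.57. Cd28 was not well above background on most other arrays either. The Cd3d probe was the brightest of its list on every array and weighs most in that sum. The same array had the highest summed level of 8 epithelial markers, 48.6 against 10.2 to 29.8 on the other 11 arrays, and of 8 skeletal muscle markers, 72.5 against 1.19 to 54.9. It was kept, and where a member or a list of genes rests on it the values without it are given too. Whether fewer cells of a type or less RNA per cell lie behind a level cannot be told apart in these bulk samples.

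No chemokine ligand of the 10 passed the test in any comparison. With limma, 0 of 10 had an adjusted p under 0.05 between LP and NP at day 21 or at day 28, where 0 of 23209 tested probes (0%) did at either day. At an unadjusted p under 0.05, 1 member was called at day 21 (Ccl5, lower in LP), with 4.36% of all probes called, and 0 members at day 28, with 8.07% of all probes called. Without replicate 6a, 0 members were called at day 21 and 1 (Cxcl12) at day 28, with 2.08% and 11% of all probes called. Members whose LP and NP arrays did not overlap numbered 2 at day 21 (Ccl2 and Ccl5, both lower in LP), against 11.5% of all probes, and 0 at day 28, against 16.8%. Across the 10 members the median difference, LP minus NP, was -0.41 at day 21 (8 below 0) and -0.21 at day 28 (6 below 0), and over all tested probes it was 0.01 and -0.05. Of all tested probes, 52.2% were higher in LP at day 21 and 42.7% at day 28. The day 21 median of the members was -0.21 without replicate 6a.

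Between the days the members were mostly higher at day 28, again without passing. For the mean of both diets, 9 of 10 had a positive difference of day 28 minus day 21, with a median of 0.78 against 0.01 over all probes, and 10 of 10 with a median of 0.50 without replicate 6a. An adjusted p under 0.05 in limma was reached by 0 members and by 421 probes (1.81%), 243 of them higher at day 28, and by 160 probes without replicate 6a. At an unadjusted p under 0.05, 5 members were called, all higher at day 28 (Ccl2, Ccl5, Ccl7, Cxcl9 and Cxcl10), with 19.2% of all probes called. Without replicate 6a these were 3 members (Ccl2, Cxcl9 and Cxcl10), with 16.3% of all probes called. Only for Cxcl9 did all 6 arrays of day 28 lie above all 6 of day 21, a separation seen in 3.73% of all probes in either direction. Within the diets, 0 members passed at an adjusted p under 0.05, with 0.25% of all probes in NP rats and 0% in LP rats. The unadjusted count was 1 member in NP rats (12.8% of all probes) and 4 members in LP rats (10.1%). All arrays of day 28 lay above all of day 21 for 4 members in NP rats (Ccl7, Cxcl9, Cxcl12 and Cxcl13). In LP rats they did so for 3 (Ccl5, Cxcl9 and Cxcl10). The share of all probes separated within a diet was not computed, so nothing is read from these separations. The change of the LP minus NP difference between the days had an adjusted p under 0.05 for 0 members and 0% of all probes, and an unadjusted p under 0.05 for 1 member, Ccl5, and 2.26% of all probes.

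**Figure D1:**
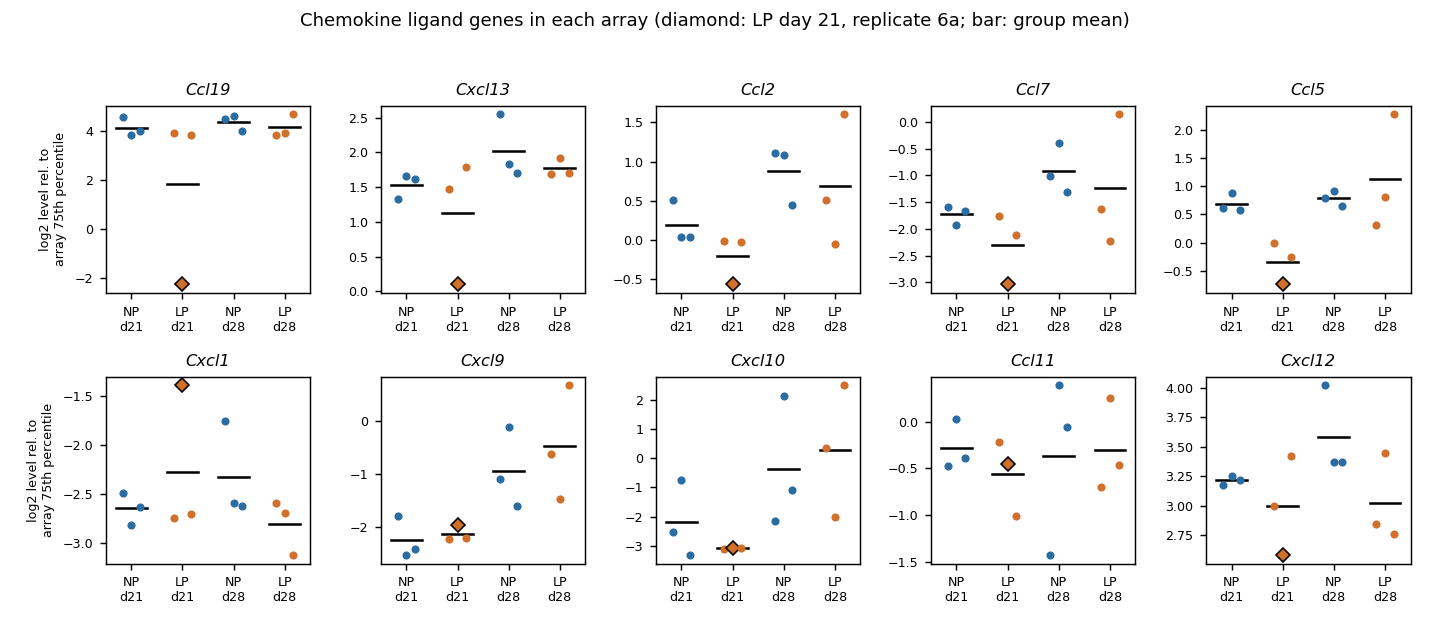
Level of each of the 10 chemokine ligand genes on each array (log2, relative to the 75th percentile of the array), by group, with NP in blue, LP in orange, a bar at the group mean and a diamond for LP at day 21, replicate 6a. For Ccl19 that array lies at -2.28 while the other 11 lie between 3.82 and 4.67, and for Cxcl9 all arrays of day 28 lie above all arrays of day 21.

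Ccl19, the ligand of Ccr7 that guides T cells and dendritic cells within lymphoid tissue, had levels of 4.55, 3.82 and 3.98 in NP rats at day 21 (replicates 4a, 5a and 6a) and of 3.93, -2.28 and 3.83 in LP rats (4a, 6a and 7c). At day 28 the levels were 4.49, 4.60 and 3.99 in NP rats (4f, 5f and 6f) and 3.85, 3.91 and 4.67 in LP rats (4f, 6f and 7f). A single array was low, LP replicate 6a of day 21, and the other 11 lay within less than 1 unit of each other, with LP and NP overlapping at both days. The difference at day 21 was -2.29 (SE 1.33, 4.89-fold lower in LP, adjusted p 0.861 in limma). Without replicate 6a it was -0.24 (SE 0.30), and the same array raised the spread used for all groups. At day 28 the difference was -0.22 (SE 1.33, adjusted p 0.956 in limma), with an SE of 0.27 once replicate 6a was left out. It was -0.07 without LP replicate 4f and -0.48 without LP replicate 7f. Over both diets, day 28 minus day 21 was 1.28 (SE 0.94) and 0.25 (SE 0.20) without replicate 6a. The Ccl19 probe lies on the minus strand of chr5:59221790-59221849 in rn4.

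Cxcl13, which draws B cells through Cxcr5 into follicles, had levels of 1.33, 1.66 and 1.62 in NP rats at day 21 and of 1.48, 0.10 and 1.78 in LP rats. At day 28 they were 2.54, 1.84 and 1.70 in NP rats and 1.69, 1.91 and 1.70 in LP rats. Replicate 6a was again the lowest array, by a smaller step than for Ccl19, and NP replicate 4f of day 28 was the highest. LP minus NP was -0.41 at day 21 (SE 0.38, adjusted p 0.894 in limma), turned to 0.09 (SE 0.24) without replicate 6a, and was -0.26 at day 28 (SE 0.38), and near 0 without NP replicate 4f. Between the days the difference was 0.57 (SE 0.27, adjusted p 0.285 in limma), or 0.31 (SE 0.16) without replicate 6a. The NP arrays of day 28 all lay above those of day 21, by a narrow margin.

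The low Ccl19 on replicate 6a was shared by further genes of lymphoid tissue, which were singled out after their values were seen. Ccl21, the second ligand of Ccr7, had a level of 1.78 there and of 2.78 to 4.62 on the other arrays. Ccl17 was at -4.95 there, against -1.05 to 0.54, and Ccl22 at -4.10, against -1.85 to 0.21. Both are dendritic cell products that bind Ccr4. Ccl20, the ligand of Ccr6, was not well above background there (-7.99) and lay between -3.55 and -1.51 elsewhere. On the LP array of day 28, replicate 7f, Ccl21, Ccl17 and Ccl22 were each at their next lowest level and the B and T cell sums were the lowest of that day, 2.98 and 9.46, while Ccl19 was at its highest, 4.67. The part of lymphoid tissue left in a sample in these values was not tested.

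**Figure D2:**
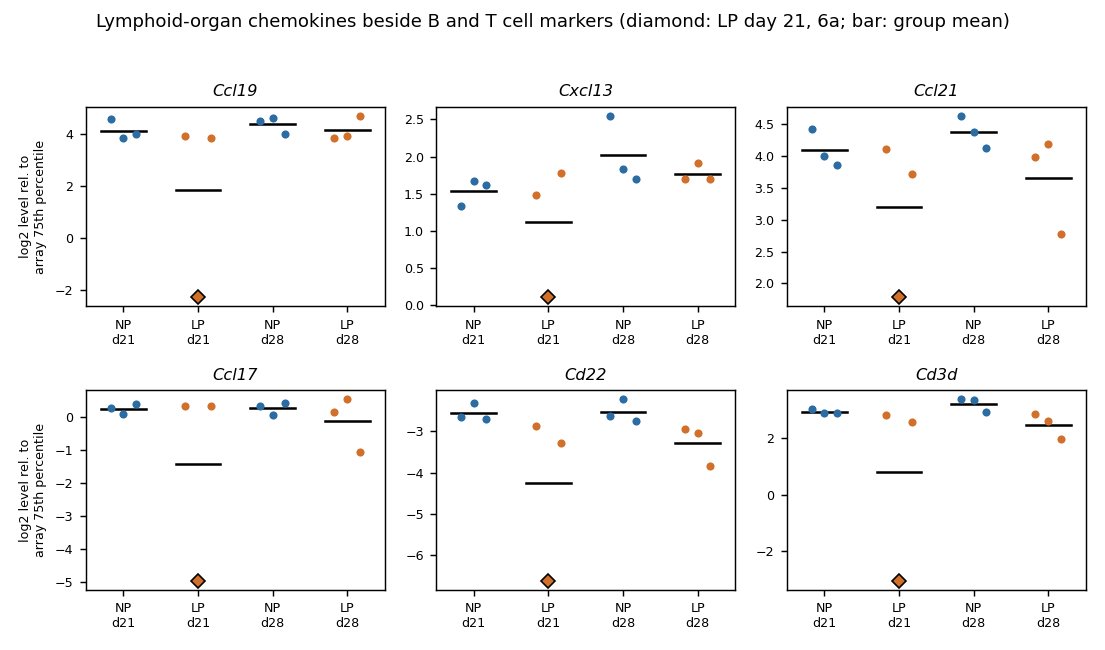
Levels of Ccl19, Cxcl13, Ccl21 and Ccl17 beside the B cell marker Cd22 and the T cell marker Cd3d on each array (log2, relative to the 75th percentile of the array), by group, with a bar at the group mean and a diamond for LP at day 21, replicate 6a. All 6 genes are lowest on that array, with Cd22 at -6.62 and Cd3d at -3.04.

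Ccl2, the main attractant of Ccr2-bearing monocytes, had levels of 0.51, 0.04 and 0.04 in NP rats at day 21 and of -0.01, -0.56 and -0.03 in LP rats. At day 28 they were 1.11, 1.08 and 0.45 in NP rats and 0.52, -0.05 and 1.60 in LP rats. The LP arrays of day 21 were all lower than the NP arrays, though LP replicates 4a and 7c were less than 0.1 under the nearest NP array, and at day 28 the LP arrays spread on both sides of NP. The difference was -0.40 at day 21 (SE 0.38, 1.32-fold, adjusted p 0.899 in limma), -0.21 without replicate 6a, and -0.20 at day 28 (SE 0.38), where it was -0.65 without LP replicate 7f and turned to 0.175 without LP replicate 6f. From day 21 to day 28 the difference was 0.79 (SE 0.27, 1.72-fold, adjusted p 0.155), and 0.69 (SE 0.28) without replicate 6a.

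Ccl7, a monocyte attractant that binds Ccr1, Ccr2 and Ccr3, varied with Ccl2. Its levels were -1.58, -1.93 and -1.66 in NP rats at day 21 and -1.75, -3.04 and -2.12 in LP rats. At day 28 they were -1.01, -0.40 and -1.31 in NP rats and -1.62, -2.23 and 0.14 in LP rats. As for Ccl2, LP replicate 6a of day 21 was the lowest array and LP replicate 7f of day 28 the highest, and LP and NP overlapped at both days. The difference was -0.58 at day 21 (SE 0.55, -0.21 without replicate 6a) and -0.33 at day 28 (SE 0.55), where it was -1.01 without LP replicate 7f and 0.17 without LP replicate 6f. Day 28 minus day 21 was 0.94 (SE 0.39, adjusted p 0.226 in limma), or 0.76 (SE 0.39) without replicate 6a and 0.60 without LP replicate 7f. Over the 12 arrays the levels of Ccl2 and Ccl7 had a Pearson r of 0.957, which was 0.928 after each group's mean was taken off and 0.946 without replicate 6a. The 2 genes are neighbours, with probes at chr10:70257919-70257978 and chr10:70268674-70268733 on the plus strand of rn4.

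Ccl5, made by activated T cells and natural killer cells and bound by Ccr1 and Ccr3, among others, showed the clearest separation by diet among the members. At day 21 the NP levels were 0.61, 0.87 and 0.58 and the LP levels -0.01, -0.74 and -0.26. At day 28 they were 0.78, 0.92 and 0.65 in NP rats and 0.31, 0.80 and 2.27 in LP rats. All LP arrays of day 21 lay below all NP arrays, and below all arrays of day 28, whereas at day 28 the LP arrays ranged from the lowest to the highest of the day. The difference at day 21 was -1.03 (SE 0.41, 2.04-fold lower in LP), with an unadjusted p of 0.0317 and an adjusted p of 0.861 in limma. With the row on the slide as a covariate it was -1.27 (SE 0.51). The lower row held LP arrays only, so that fit takes the row effect from LP arrays alone and cannot check it in NP arrays. Without LP replicate 6a the difference was -0.82 (SE 0.46, unadjusted p 0.103 in limma). The unadjusted p was also above 0.05 without NP replicate 4a (0.0561), 5a (0.0832) or 6a (0.0529) or LP replicate 7c (0.055) of day 21. At day 28 the difference was 0.34 (SE 0.41), and -0.23 without LP replicate 7f. From day 21 to day 28 this difference moved by 1.37 (SE 0.58, unadjusted p 0.0402 in limma, not passing after adjustment), or 1.17 (SE 0.61) without replicate 6a and 0.80 (SE 0.31) without LP replicate 7f. The unadjusted call for this change was lost in 8 of the 12 fits with an array left out, and with replicate number as a block. In LP rats Ccl5 was higher on all 3 arrays of day 28 than on all 3 of day 21, by 1.46 (SE 0.41, 2.76-fold, adjusted p 0.330), or 0.89 without LP replicate 7f, and in NP rats the difference between the days was 0.09 (SE 0.41). The probe lies on the minus strand of chr10:71605854-71605913 in rn4.

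Cxcl1, a neutrophil attractant that acts through Cxcr2, was the only member for which replicate 6a was the highest array, at -1.40, with the other 11 between -3.12 and -1.76. Its difference of LP minus NP was 0.36 at day 21 (SE 0.36), -0.08 (SE 0.27) without that array, and -0.48 at day 28 (SE 0.36, adjusted p 0.617 in limma), or -0.19 without NP replicate 4f. Day 28 minus day 21 was -0.10 (SE 0.26), and 0.12 (SE 0.18) without replicate 6a. The summed level of 7 neutrophil markers was lowest on replicate 6a, 0.445 against 0.665 to 2.40 on the others, with 4 of the 7 well above background there.

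Cxcl9 and Cxcl10 are induced by interferons and bind Cxcr3 on activated T and natural killer cells. Cxcl9 had levels of -1.79, -2.53 and -2.41 in NP rats and -2.22, -1.95 and -2.20 in LP rats at day 21, and of -1.09, -0.10 and -1.60 in NP rats and -0.62, -1.47 and 0.67 in LP rats at day 28. Every array of day 28 lay above every array of day 21, and LP and NP overlapped at both days. Day 28 minus day 21 was 1.48 (SE 0.36, 2.79-fold), with an unadjusted p of 0.0022 and an adjusted p of 0.0731 in limma, higher in 6 of 6 arrays. Without LP replicate 6f of day 28 the adjusted p was 0.0451, without LP replicate 6a of day 21 it was 0.129 (difference 1.53, SE 0.40), and over all alternatives it lay between 0.0451 and 0.164. The difference between the days was 1.31 (SE 0.51, and 0.90 without NP replicate 5f) in NP rats and 1.65 (SE 0.51, and 1.08 without LP replicate 7f) in LP rats, and their change was 0.34 (SE 0.72). LP minus NP was 0.12 at day 21 (SE 0.51) and 0.46 at day 28 (SE 0.51), where it was -0.11 without LP replicate 7f.

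Cxcl10 was uneven among rats of 1 group. At day 21 its levels were -2.53, -0.74 and -3.32 in NP rats and -3.10, -3.06 and -3.06 in LP rats, and at day 28 they were -2.15, 2.13 and -1.08 in NP rats and 0.34, -2.00 and 2.50 in LP rats. NP replicate 5f and LP replicate 7f of day 28 were the highest, NP replicate 5a was the highest of day 21, and the 3 LP arrays of day 21 were within 0.1 of each other. Day 28 minus day 21 was 2.59 (SE 0.89, 6.03-fold, adjusted p 0.161 in limma), with the days overlapping. In LP rats it was 3.36 (SE 1.26, adjusted p 0.424 in limma), or 2.25 without LP replicate 7f. In NP rats it was 1.83 (SE 1.26, and 0.58 without NP replicate 5f), and the change between the diets was 1.53 (SE 1.78, and 0.42 without LP replicate 7f). LP minus NP was -0.88 at day 21 (SE 1.26, and -0.15 without NP replicate 5a) and 0.65 at day 28 (SE 1.26), and the latter was -0.46 without LP replicate 7f and 1.90 without NP replicate 5f. Cxcl9 and Cxcl10 had a Pearson r of 0.862 over the 12 arrays, 0.764 after the group means were taken off and 0.861 without replicate 6a. Their probes lie near each other, at chr14:17288831-17288890 and chr14:17267994-17268053 on the plus strand of rn4.

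The arrays with high Cxcl10 were also high in interferon-responsive genes. Cxcl11, the other Cxcr3 ligand of this family, chosen after its values were seen, was at -2.10 on NP replicate 5f and -0.49 on LP replicate 7f. It was well above background on all 3 LP arrays of day 28 and on 0 of 3 of day 21, with means of -3.89 and -8.35, which makes it at least 13.4-fold higher at day 28 in LP rats (adjusted p 0.435 in limma). The 3 LP values of day 28 were -4.35, -6.82 and -0.49, and without replicate 7f the bound is 4.12-fold. Such a bound sets the mean of the brighter group against the lowest signal well above background on the dimmer arrays, or the dim probe's own signal where that is higher. The summed level of 12 genes of interferon gamma and its targets was 51.0 on NP replicate 5f and 53.4 on LP replicate 7f, against 20.7 to 38.9 on the other 10 arrays, and the brightest probe, which weighs most in the sum, was that of Irf1 on 6 arrays, Ifngr1 on 5 and Psmb9 on 1. Ifng itself was well above background on 1 array only, LP replicate 7f. Of the 11 tested genes of that list, 11 had a positive difference of day 28 minus day 21 (median 0.58) and 7 had an unadjusted p under 0.05 (19.2% of all probes did), and without replicate 6a these were 11 genes, a median of 0.43 and 6 genes (16.3% of all probes). Gbp5, an interferon-induced GTPase, was at 1.18 (SE 0.37, adjusted p 0.132) and Gbp2 at 0.95 (SE 0.31, adjusted p 0.141). In LP minus NP, 0 of 11 were positive at day 21 (median -0.44, or -0.25 without replicate 6a), with Ciita, the activator of class II antigen presentation genes, at -1.42 (SE 0.69) and Psmb8, a subunit of the immunoproteasome, at -0.56 (SE 0.29), or -0.42 (SE 0.31) and -0.29 (SE 0.28) without that array. At day 28, 8 of 11 were positive (median 0.06), but 1 of 11 without LP replicate 7f (median -0.15), with Jak2 at -0.15 (SE 0.12) and Irf1 at -0.29 (SE 0.24, and -0.10 without LP replicate 6f). The summed level of 8 macrophage markers was also highest on LP replicate 7f (59.9) and next highest on NP replicate 5f (47.4), and their part in the chemokine levels was not tested.

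**Figure D3:**
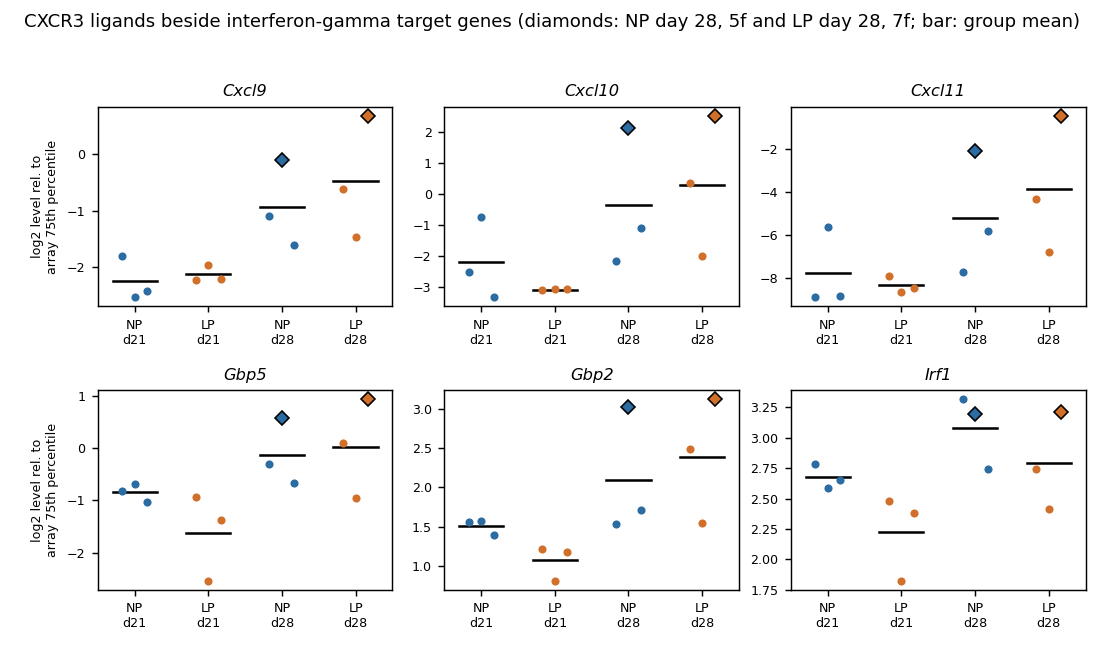
Levels of the Cxcr3 ligands Cxcl9, Cxcl10 and Cxcl11 beside the interferon-responsive genes Gbp5, Gbp2 and Irf1 on each array (log2, relative to the 75th percentile of the array), by group, with a bar at the group mean and diamonds for NP replicate 5f and LP replicate 7f of day 28. On these arrays Cxcl10 is at 2.13 and 2.50, Gbp5 at 0.57 and 0.93 and Gbp2 at 3.03 and 3.12, the highest levels of each gene.

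Ccl11 (eotaxin), which draws eosinophils through Ccr3, overlapped between all groups, with levels from -1.43 (NP replicate 4f of day 28) to 0.39 (NP replicate 5f of day 28). Its group means were -0.28 ± 0.27 (SD, n = 3) in NP and -0.56 ± 0.40 in LP rats at day 21, and -0.37 ± 0.95 and -0.30 ± 0.50 at day 28. LP minus NP was -0.28 (SE 0.44) and 0.06 (SE 0.44), and day 28 minus day 21 was 0.09 (SE 0.31), each smaller than its SE. The day 21 difference was -0.06 without LP replicate 7c and -0.45 without LP replicate 4a. The probe lies at chr10:70283679-70283738, beside Ccl7. Of 7 eosinophil markers, 5 were tested. Prg3 was well above background on 1 array of day 28, so its direction there cannot be read, and of the other 4 LP minus NP at day 28 was positive for 2 and negative for 2 (Siglec5 and Prg2). Rnase2 and Ear11, ribonucleases of eosinophil granules, were higher on all 3 LP arrays than on all 3 NP arrays of day 28, where 16.8% of all probes did not overlap. The differences were 1.32 (SE 0.40) and 1.39 (SE 0.45), each with an adjusted p of 0.581 in limma (0.83 and 0.84 without NP replicate 4f). Both were higher at day 28 than at day 21, by 0.90 (SE 0.29) and 0.81 (SE 0.32), where the median of the 5 was 0.04.

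Cxcl12, a constitutive stromal chemokine that retains leukocytes and progenitor cells through Cxcr4 and is scavenged by Ackr3, had levels of 3.17, 3.25 and 3.22 in NP rats and 3.00, 2.58 and 3.42 in LP rats at day 21, and of 4.02, 3.37 and 3.37 in NP rats and 2.84, 3.45 and 2.76 in LP rats at day 28. NP replicate 4f of day 28 was the highest array, and at day 28 LP replicate 6f reached into the NP range. LP minus NP was -0.22 at day 21 (SE 0.26, -0.01 without replicate 6a) and -0.57 at day 28 (SE 0.26, 1.48-fold), with an unadjusted p of 0.0531 and an adjusted p of 0.581 in limma, and its SE was 0.23 (unadjusted p 0.0365) without replicate 6a. Without NP replicate 4f the day 28 difference was -0.35. The array holds another Cxcl12 probe, annotated to another transcript, at chr4:153516205-153516264 against chr4:153510285-153510344 in rn4. For it the difference at day 28 was -0.23 (SE 0.20), and day 28 minus day 21 was -0.12 (SE 0.14) where the first probe gave 0.20 (SE 0.18), so the probes differed in direction between the days, with differences of about the size of their SE. The day difference of the first probe was 0.0902 without replicate 6a and 0.0867 without NP replicate 4f.

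The lymphoid-organ chemokines were set against the inflammatory ones as the mean level of Ccl19 and Cxcl13 minus that of Ccl2, Ccl5, Ccl7, Cxcl1, Cxcl9 and Cxcl10 on each array. Probes differ in brightness, so only differences of this value between arrays can be read. It was 4.15, 3.92 and 4.37 in NP rats and 4.34, 0.70 and 4.54 in LP rats at day 21, and 4.21, 3.05 and 3.76 in NP rats and 3.38, 4.19 and 2.51 in LP rats at day 28. Replicate 6a was far below the rest, and the next lowest were LP replicate 7f and NP replicate 5f of day 28, the arrays with the most Cxcl10. Cxcl10 is among the genes subtracted and had the widest range of them, so this follows in part from how the value is built. The LP mean was 0.95 below the NP mean at day 21 (LP minus NP -0.95) and 0.29 above it without replicate 6a. At day 28 LP minus NP was -0.31, and day 28 minus day 21 was -0.15, or -0.78 without replicate 6a. Without LP replicate 7f of day 28 both turned, to 0.11 and 0.06. The SDs of its groups were 0.22 and 2.16 in NP and LP rats at day 21 and 0.59 and 0.84 at day 28. The inflammatory mean alone differed by -0.40 between LP and NP at day 21, by 0.08 at day 28 (-0.46 without LP replicate 7f) and by 1.08 between the days, and the lymphoid-organ mean by -1.35, -0.24 and 0.92. Without replicate 6a the lymphoid-organ mean differed by -0.07 at day 21 and by 0.28 between the days.

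How the lymphoid-organ pair varied together rested on replicate 6a. Ccl19 and Cxcl13 had a Pearson r of 0.855 over the 12 arrays and 0.192 over the 11 others, while Cxcl12 and Cxcl13 had 0.785 and 0.766. Ccl19 and Ccl2 went from 0.612 to 0.862. These are descriptions over arrays that share slides and days, without a test. Among 11578 genes well above background on all arrays, Ccl19 was most like Tnfrsf1b (r 0.994 over 12 arrays and 0.794 without replicate 6a), Rgs1 (0.991 and 0.769) and Bcl2a1d (0.989 and 0.874). Cxcl13 was most like Fam105a (0.956), Clic2 (0.949) and the plasma cell and lymphocyte surface enzyme Cd38 (0.942), with 0.874, 0.816 and 0.770 without that array.

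Likeness was less dependent on replicate 6a for the inflammatory members. Ccl5 followed the cytotoxic granule genes Gzmk (0.972) and Nkg7 (0.969) and the killer cell receptor gene Klra17 (0.956), with 0.969, 0.963 and 0.944 without replicate 6a. Ccl2 followed Ccrl2 (0.971), Ccl7 and Irf1 (0.942), and Ccl7 followed Ccl2, Ccrl2 (0.951) and Gbp5 (0.926). Cxcl10 was most like RT1-N2, Herc6 and Isg15 (0.966, 0.966 and 0.965), the latter 2 known interferon-stimulated genes, and Cxcl9 like Fndc3a (0.976), Pcyox1l (0.964) and the Fc receptor gene Fcgr3a (0.938). For Cxcl1 the most alike were Rassf3 (0.883), Osgin1 (0.880) and Zbtb39 (0.865), for Ccl11 Ppp1r14b (0.873), Snx30 (0.847) and Chsy1 (0.846), and for Cxcl12 Tacr1 (0.946), Pde4b (0.926) and Il23a (0.920).

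Promoter sequences are shown for the lymphoid-organ pair and for the neighbouring Cxcr3 ligands. Each has 300 bases, the last 50 of them from the gene start on, and they come from RefSeq (GRCr8), in which 7 of the 10 members were matched by symbol. Capitals mark matches, on either strand, to the core of the interferon-stimulated response element (GAAANNGAA, in 9.71% of 33469 promoters), to the gamma-activated site (TTCNNNGAA, in 8.87%) and to the kappaB consensus (in 7.51%). The windows are chr14:15988816-15989115 on the plus strand for Cxcl10, chr14:16006916-16007215 on the plus strand for Cxcl9, chr5:61761115-61761414 on the minus strand for Ccl19 and chr14:13917871-13918170 on the minus strand for Cxcl13.
Cxcl10: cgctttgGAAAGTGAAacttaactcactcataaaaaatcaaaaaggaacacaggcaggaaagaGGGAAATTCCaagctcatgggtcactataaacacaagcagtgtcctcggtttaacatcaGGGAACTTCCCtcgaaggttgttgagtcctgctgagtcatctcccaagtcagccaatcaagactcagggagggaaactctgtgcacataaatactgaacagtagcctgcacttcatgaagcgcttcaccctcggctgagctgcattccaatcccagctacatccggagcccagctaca
Cxcl9: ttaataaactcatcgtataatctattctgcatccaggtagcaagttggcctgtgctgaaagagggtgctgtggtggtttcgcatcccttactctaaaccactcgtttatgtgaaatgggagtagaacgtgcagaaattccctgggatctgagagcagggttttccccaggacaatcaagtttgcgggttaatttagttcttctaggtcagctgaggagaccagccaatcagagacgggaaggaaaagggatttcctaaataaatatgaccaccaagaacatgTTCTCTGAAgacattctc
Ccl19: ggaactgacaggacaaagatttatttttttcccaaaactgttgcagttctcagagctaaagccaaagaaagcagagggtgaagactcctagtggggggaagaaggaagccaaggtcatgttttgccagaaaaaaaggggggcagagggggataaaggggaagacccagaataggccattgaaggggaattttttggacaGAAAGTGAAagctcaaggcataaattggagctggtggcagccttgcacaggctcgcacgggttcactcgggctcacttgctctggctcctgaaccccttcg
Cxcl13: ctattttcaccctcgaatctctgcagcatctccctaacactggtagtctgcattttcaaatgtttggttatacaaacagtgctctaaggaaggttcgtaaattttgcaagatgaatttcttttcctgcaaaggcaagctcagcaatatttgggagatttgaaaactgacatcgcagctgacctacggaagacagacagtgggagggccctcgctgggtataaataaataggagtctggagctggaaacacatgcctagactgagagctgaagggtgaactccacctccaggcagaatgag
Cxcl10 holds the interferon-stimulated response element core at -243 from the gene start and kappaB matches at -187 and, on both strands and overlapping, at -128 and -127. Cxcl9, 17800 bases from the Cxcl10 window, holds a gamma-activated site letter match at 33, and Ccl19 the response element core at -51. Cxcl13 holds none of the 3 and has the TATA box core (TATAAA, in 14.2% of promoters) at -33, which Ccl7 has at -34 and Cxcl10 at -162. Of the other matched members, Ccl7 holds a gamma-activated site match at 32 and 1 kappaB match, Cxcl1 2 overlapping kappaB matches, and Cxcl12 none. These matches describe letters in a window and no binding.

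Among the receptors, none of 18 tested genes of 20 on the array passed in limma in LP minus NP at either day or between the days, while 3 at day 21, 3 at day 28 and 1 between the days were called before adjustment, where 4.36%, 8.07% and 19.2% of all probes were. At day 21, 16 of the 18 were lower in LP (median -0.59), and 15 (median -0.24) without replicate 6a. Ccr7, which binds Ccl19, was at -5.78 on replicate 6a and between -2.09 and -1.01 on the other arrays, and its difference at day 21 was -1.75 (SE 0.94), or -0.30 (SE 0.21) without that array. At day 28 its levels were -1.18, -1.10 and -1.57 in NP rats and -1.79, -1.91 and -2.09 in LP rats, a difference of -0.65 (SE 0.94, or 0.18 without replicate 6a, adjusted p 0.790 in limma). Cxcr5, which binds Cxcl13, was at -7.82 and not well above background there, with a difference of -1.22 (SE 0.45), or -0.68 (SE 0.35). It was not well above background on LP replicate 7c of day 21 either, so the size of its difference is uncertain. Cxcr3, which binds Cxcl9 and Cxcl10, was at -6.16 on replicate 6a and between -3.40 and -2.59 elsewhere, with a difference of -1.37 (SE 0.68), or -0.35 (SE 0.25).

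At day 21, LP minus NP was -0.21 for Ccr1 (SE 0.32), -0.59 for Ccr2 (SE 0.44), -0.23 for Cxcr2 (SE 0.41), -0.45 for Cxcr4 (SE 0.36) and 0.02 for Ackr3 (SE 0.18). At day 28 it was 0.73 for Ccr1 (SE 0.32), 0.56 for Ccr2 (SE 0.44), 0.85 for Cxcr2 (SE 0.41), 0.02 for Cxcr4 (SE 0.36) and -0.27 for Ackr3 (SE 0.18), each with an adjusted p of 0.581 or more, and without LP replicate 7f Ccr1 was at 0.37 and Ccr2 at 0.04, and without NP replicate 4f Cxcr2 was at 0.29. Of the 18 receptors, 12 were lower in LP at day 28 (median -0.32), where 42.7% of all probes were higher in LP. Ccr3, the receptor of Ccl11, exceeded background clearly on all 3 NP arrays of day 21 (mean -6.70) but on 0 LP arrays (mean -7.83), which puts it at least 1.82-fold lower in LP. It was well above background on 4 arrays in all, so its test, 1 of the 3 called at day 21, is not relied on. Cxcr6, a receptor of effector T cells, was lower on all LP arrays of day 21 (-1.08, SE 0.33, and -0.69, SE 0.25, without replicate 6a), and Cx3cr1, the fractalkine receptor of monocytes, was at -0.47 at day 28 (SE 0.21). Between the days, 13 of 18 were positive (median 0.29, or 0.04 without replicate 6a), with Cx3cr1 at 0.34 (SE 0.15).

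Of 24 other chemokine ligands, 21 were tested, and 1 passed, between the days. Ccl24 (eotaxin-2), another ligand of Ccr3, rose from 2.92, 2.96 and 2.95 in NP and 2.93, 2.84 and 2.96 in LP rats at day 21 to 3.30, 3.44 and 3.23 in NP and 3.18, 3.05 and 3.11 in LP rats at day 28. All 6 arrays of day 28 lay above all 6 of day 21, by a small amount, 0.29 (SE 0.06, 1.22-fold, adjusted p 0.0469 in limma), and LP lay below NP at day 28 (-0.21, SE 0.09, adjusted p 0.581). Without replicate 6a its day difference was 0.27 (SE 0.07) and did not pass. Between the days 18 of 21 were positive (median 0.37), with 6 at an unadjusted p under 0.05, where 19.2% of all probes were, among them the lymphotactin Xcl1 at 1.01 (SE 0.32, adjusted p 0.139). In LP minus NP, 15 of 21 were negative at day 21 (median -0.41, -0.07 without replicate 6a or -0.03 without NP replicate 5a), with the epithelial chemokine Ccl28 at 1.44 (SE 0.64, and 0.64 without NP replicate 4a, or 0.98 without LP replicate 6a) and Ccl9 at -0.85 (SE 0.38), and 14 of 21 were positive at day 28 (median 0.05), but 8 of 21 without LP replicate 7f (median -0.06), with the neutrophil attractant Cxcl2 at -0.78 (SE 0.35, and -0.49 without NP replicate 4f).

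Lymphotoxin signals through Ltbr and the alternative NF-kB pathway to induce lymphoid-organ chemokines. Of 9 tested genes of this pathway, 6 were lower in LP at day 21 (median -0.82, or -0.16 without replicate 6a) and 7 at day 28 (median -0.51), with 0 passing in limma and 1 and 0 called before adjustment, against 4.36% and 8.07% of all probes. At day 21, LP and NP did not overlap for 2 genes lower in LP and 1 higher, where 11.5% of all probes did not. At day 28 they did not overlap for 6 of the 9, all lower in LP, where 16.8% of all probes did not. Map3k14, the kinase of the alternative pathway, was lower on all LP arrays at both days, with differences of -0.82 (SE 0.26, or -0.46 without replicate 6a) and -0.51 (SE 0.26), while Ltbr was at 0.20 (SE 0.09) at day 21 and Tnfrsf1a at -0.17 (SE 0.10) at day 28. Without replicate 6a, 6 of the 9 were called before adjustment at day 28, where 11% of all probes were. Between the days 7 of 9 were positive (median 0.08), but 2 of 9 without replicate 6a (median -0.09), with Tnfrsf11a at -0.23 (SE 0.17) and Ltbr at -0.08 (SE 0.06).

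Lymphocyte markers leaned to lower levels in LP rats at both days, without passing the test. At day 21, 7 of 7 tested B cell markers (median -2.11) and 8 of 8 T cell markers (median -2.22) were negative, and without replicate 6a 6 of 7 (median -0.50) and 8 of 8 (median -0.21). With all arrays, 5 B cell and 3 T cell markers did not overlap between LP and NP at day 21, where 11.5% of all probes did not. At day 28, 7 of 7 (median -0.62) and 8 of 8 (median -0.58) were negative, with 4 and 6 not overlapping between LP and NP, where 16.8% of all probes did not, and without LP replicate 7f the medians were -0.31 and -0.35. Of all probes without overlap at day 28, 2876 were lower in LP and 1023 higher. The B cell kinase Blk and receptor Cd22 were at -2.38 (SE 1.14) and -1.71 (SE 0.79) at day 21 (-0.61 and -0.53 without replicate 6a), and Cd22 and Cd79b at -0.74 (SE 0.79) and -1.06 (SE 1.28) at day 28 (-0.46 and -0.55 without LP replicate 7f). Of the T cell genes, Cd8a and Lck were at -1.74 (SE 0.93) and -1.57 (SE 0.86) at day 21 (-0.31 and -0.25 without replicate 6a), and Cd3d and Lck at -0.74 (SE 1.23) and -0.48 (SE 0.86) at day 28 (-0.49 and -0.34 without LP replicate 7f). With all arrays 0 were called before or after adjustment in limma. Without replicate 6a an unadjusted p under 0.05 was reached by 2 B cell and 0 T cell markers of day 21, against 2.08% of all probes. For day 28 it was reached without that array by 4 B cell and 6 T cell markers, against 11% of all probes. Ccl19 and Cxcl13 overlapped between LP and NP at day 28 all the same. Between the days all 15 were positive, with Ms4a1 at 1.11 (SE 0.73), Cr2 at 1.37 (SE 0.98), Cd8a at 0.86 (SE 0.66) and Cd3g at 1.24 (SE 1.05), with medians of 0.96 and 0.92 for B and T cells, while without replicate 6a the medians were 0.14 and -0.04 and these 4 genes were at 0.33, 0.30, 0.14 and 0.09.

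Markers of the other cell types of the gland gave the following. Of 8 epithelial markers, 8 were higher in LP at day 21 (median 0.79, or 0.45 without replicate 6a, Epcam 0.93, SE 0.45, and Krt18 0.81, SE 0.41) and at day 28 (median 0.73, or 0.23 without NP replicate 4f, Epcam 0.82, SE 0.45, and Krt8 0.88, SE 0.54). Between the days 5 of 8 were positive (median 0.02), with Krt5 at -0.23 (SE 0.46) and Krt8 at -0.17 (SE 0.38). This count was 8 of 8 without replicate 6a (median 0.21) and 0 of 8 without LP replicate 7c (median -0.18). Of 8 macrophage markers, 7 were lower in LP at day 21 (median -0.26, but 5 of 8 and -0.01 without replicate 6a, Csf1r -0.44, SE 0.24, and C1qa -0.28, SE 0.24) and 7 higher at day 28 (median 0.19, but 4 of 8 and near 0 without LP replicate 7f, Cd163 0.63, SE 0.29, and C1qa 0.30, SE 0.24), and 6 were higher at day 28 than at day 21 (median 0.28, or 0.18 without replicate 6a), with C1qb at 0.41 (SE 0.15) and Cd68 at 0.54 (SE 0.23). Of 5 tested eosinophil markers, 5 were lower in LP at day 21 (median -0.57, but 4 and -0.42 without replicate 6a, Siglec5 -0.57, SE 0.25, and Prg2 -2.15, SE 1.05) and 2 of the 4 readable ones were higher at day 28, with a median of 0.04 between the days, or -0.04 without replicate 6a. Of 6 tested neutrophil markers, 6 were lower in LP at day 21 (median -0.63, but 3 of 6 and 0.02 without replicate 6a, on which Csf3r was not well above background, S100a8 -1.05, SE 0.84, and Csf3r -0.91, SE 0.66) and 5 at day 28 (median -0.43, S100a8 -1.24, SE 0.84, and Camp -0.55, SE 0.35), and between the days (median -0.32, or -0.51 without replicate 6a) Mpo was at 0.62 (SE 0.30) and S100a9 at -1.15 (SE 0.57). None of these markers passed in limma. The genes named for day 21 were nearer 0 without replicate 6a (Epcam 0.50, Krt18 0.48, Csf1r -0.15, C1qa -0.09, Siglec5 -0.42, Prg2 -1.16, Csf3r -0.07), with S100a8 turned to 0.04. At day 28 Krt8 was at 0.30 and Epcam at 0.53 without NP replicate 4f, Cd163 at 0.30 and C1qa at 0.04 without LP replicate 7f, and between the days Krt5 and Krt8 turned to 0.10 and 0.12 without NP replicate 4f.

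Lymph node vessel and stroma markers, 6 of them tested, had medians of 0.08 and -0.04 in LP minus NP at day 21 and day 28, with 4 of 6 positive at day 21 (median 0.19 without replicate 6a, on which Il7 was not well above background) and 3 of 6 at day 28. Clu was at -0.33 (SE 0.17) and Il7 at -0.98 (SE 0.52) at day 21, and Tnfrsf11b at 0.61 (SE 0.43) and Lyve1 at 0.30 (SE 0.25) at day 28. At day 28, 1 marker did not overlap between LP and NP and was lower in LP, where 16.8% of all probes did not overlap in either direction. Between the days the median was 0.02, or -0.07 without replicate 6a, and Madcam1, an adhesion molecule of lymph node vessels, was at -0.64 (SE 0.24) and Il7 at 0.71 (SE 0.37). Fat cell markers (7 tested) had medians of -0.04 (0.03 without replicate 6a) and 0.03 between the diets at day 21 and day 28, with Retn at 0.16 (SE 0.19), Adipoq at -0.09 (SE 0.15), Lep at 0.83 (SE 0.47, day 28) and Pparg at -0.24 (SE 0.23, day 28). Retn, which encodes resistin, was the only marker that passed between the days (list median 0.01), 0.69 higher at day 28 (SE 0.13, 1.61-fold, adjusted p 0.0384 in limma), and Lep was at -0.85 (SE 0.33). Without replicate 6a Retn was at 0.68 (SE 0.15, adjusted p 0.0821 in limma) and did not pass, and the list median was 0.04. Fibroblast markers had medians of 0.05 (-0.01 without replicate 6a) and 0.04 between the diets, with Fbln1 at -0.39 (SE 0.28) and Col1a2 at 0.21 (SE 0.21) at day 21, and Lum at 0.95 (SE 0.43) and Thy1 at 0.72 (SE 0.34) at day 28, where 4 of 8 were positive. Between the days 3 of 8 were positive and 5 negative (median -0.02), with Fbln1 at 0.33 (SE 0.20) and Col1a2 at 0.24 (SE 0.15). Skeletal muscle markers varied widely between rats, with medians of -0.83, 0.15 and -1.43 in the same comparisons, of which the first and last were -2.53 and -0.51 without replicate 6a and the first turned to 0.53 without LP replicate 4a and the next to -1.70 without LP replicate 6f, and with large SEs, for example Myh4 at -2.52 (SE 2.57) and Ckm at -1.99 (SE 2.39) at day 21, Mb at 0.73 (SE 0.98) and Ckm at -1.15 (SE 2.39) at day 28, and Actn3 at -1.44 (SE 1.13) and Acta1 at -1.57 (SE 1.30) between the days. Many of these values moved when 1 array was left out. At day 21 Il7 was at -0.22 and Clu at -0.16 without replicate 6a, at day 28 Tnfrsf11b was at 0.14, Lyve1 at 0.05, Lep at 0.20, Lum at 0.31 and Thy1 at 0.30 without NP replicate 4f, and between the days Il7 was at 0.33 without replicate 6a. For Myh4 the day 21 value was -0.01 and for Ckm 0.41 without LP replicate 4a, and at day 28 Ckm was at 0.36 without LP replicate 4f and Mb at -0.01 without LP replicate 6f. The part of muscle, epithelium or lymphoid tissue in the chemokine levels was not tested.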

How the data were processed

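Total RNA of the lumbar mammary gland of 12 rats, 3 per group, was measured on one-colour Agilent arrays placed on rn4, with 74.8% to 79.6% of the gene spots of an array well above background. The authors deposited, per the file headers, the processed intensity of each spot from Feature Extraction 10.7.3.1, background-subtracted and detrended within the array. A further file deposited by the authors holds the ratio of each signal to the array median, which is linear and was logged (log2) when used as an alternative.

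From the intensities, control and outlier spots were dropped, each log2 value was taken minus that of the array's 75th percentile, and spots of a probe were averaged. A probe entered the tests if 3 or more of the 12 arrays had it well above background (23209 of 30367 did). The tests used limma 3.58.1 (R 4.3.3, data.table version 1.17.8), with lmFit on the 4 groups and eBayes (prior degrees of freedom 1.95), and p values were adjusted (Benjamini-Hochberg) over the tested probes, contrast by contrast. The smallest exact two-sided p for 3 against 3 arrays would be 0.1. A gene is represented by its probe with the highest mean signal. The pipeline was tested on simulated data.

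Members and lists (lymphoid-organ, inflammatory and constitutive members, other ligands, receptors, lymphotoxin and interferon genes, and markers of 10 cell types or tissues) were chosen with earlier results of these data known. All members and their receptors are named, apart from genes not reported here that the counts include, and of each other list the 2 genes with the lowest unadjusted p in each diet contrast and in the mean day contrast, with the 3 genes most correlated with each member. Lists are given as counts and medians without a test. Alternatives were other normalizations, backgrounds and filters, another probe, only the arrays of a day, the slide row, trend and robust eBayes, replicate number as a block, a random block of diet and number (correlation 0.0266) and leaving out each array. Leaving out arrays for the lists, their named genes and the bounds was chosen after seeing the data.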

Additional observations from a re-analysis of the deposited data

How the results depend on the processing

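No member passed an adjusted p under 0.05 in limma in any comparison under the alternatives, except Cxcl9 between the days without LP replicate 6f of day 28 (difference 1.73, adjusted p 0.0451). Apart from leaving out arrays, directions of single members were kept in 98 of 100 and 97 of 100 values of LP minus NP at day 21 and day 28, in 89 of 90 between the days, in 88 of 90 within each diet and in 99 of 100 for the change of the difference. These counts are no measure of stability, since several settings cannot move a difference. Among them are the filters, the fit to only the arrays of a day, and trend and robust eBayes. Another probe was available for Cxcl12 only. The score of lymphoid-organ minus inflammatory chemokines was computed again under 3 of these (quantile normalization, the series file and the normexp background) and kept its direction in LP minus NP at both days and between the days, while leaving out single arrays turned it (below).

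Some values turned. For Cxcl12 between the days in LP rats (0.02) quantile normalization gave -0.0312. For Ccl11 the normexp background gave -0.0575 in LP minus NP at day 28 (0.06) and 0.0884 between the days in NP rats (-0.08). The next Cxcl12 probe gave -0.12 between the days, -0.15 in NP rats, -0.10 in LP rats and 0.0481 for the change. With the row on the slide as a covariate, LP minus NP was -0.0045 for Cxcl9 at day 21 and 0.69 for Ccl19 at day 28. The row effect in that fit rests on LP arrays alone. The count of members at an unadjusted p under 0.05 for LP minus NP at day 28, 0 as reported, was 1 with the normexp background, with the filter set to 12 of 12 arrays, and with trend and robust eBayes. The cause was not tested.

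Taking the replicate number as a block within a day, LP minus NP was 0.10 for Ccl11 at day 21 and -0.16 for Ccl5 at day 28, the members at an unadjusted p under 0.05 were 2 at day 21 and 1 at day 28, and for the change they were 0. The count of probes at an adjusted p under 0.05 was 0 for both days, as without the block. Only 2 pairs a day share a number, with correlations of their deviations from the group means of 0.093, 0.132, 0.096 and 0.089. Arrays of the same diet and number on the other day had -0.055 to 0.379, the highest for LP replicates 4a and 4f. Each dam ate 1 of the diets in pregnancy, so a number shared by an NP and an LP array is not a shared litter. The labels do not say whether rats of the same diet and number were littermates. What a shared number stands for was not tested.

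Leaving out 1 array at a time, the members at an unadjusted p under 0.05 ranged from 0 to 2 at day 21, 0 to 2 at day 28, 3 to 6 between the days, 0 to 3 in NP rats, 2 to 5 in LP rats and 0 to 1 for the change, and those at an adjusted p under 0.05 between the days from 0 to 1. The score difference ranged from -1.63 to 0.29 at day 21, -0.72 to 0.11 at day 28 and -0.78 to 0.18 between the days, so 1 array or more turned its direction in each. LP minus NP at day 21 ranged from -0.0227 to 0.34 for Cxcl9, -0.0786 to 0.59 for Cxcl1 and -0.75 to 0.0949 for Cxcl13. At day 28 it ranged from -0.65 to 0.175 for Ccl2, -0.23 to 0.75 for Ccl5, -1.01 to 0.17 for Ccl7, -0.47 to 0.44 for Ccl11, -0.11 to 0.96 for Cxcl9, -0.46 to 1.90 for Cxcl10 and -0.42 to 0.0036 for Cxcl13. Between the days the ranges were -0.10 to 0.35 for Ccl11, -0.24 to 0.12 for Cxcl1 and 1.20 to 1.73 for Cxcl9, in NP rats -0.46 to 0.45 for Ccl11, and in LP rats -0.0193 to 0.46 for Ccl11 and -0.20 to 0.23 for Cxcl12. For the change they were -0.26 to 0.57 for Ccl2, -0.44 to 0.75 for Ccl7, -0.19 to 0.72 for Ccl11, -0.23 to 0.84 for Cxcl9 and -0.35 to 0.49 for Cxcl13. With 2 arrays left in a group, limma pools the spread over the groups.

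Probes at an adjusted p under 0.05 between the days numbered 421, against 217 without a filter and 99 to 398 when an array was left out. In NP rats there were 58, against 0 without a filter, 102 with the values of the series file, 88 with the filter set to 12 of 12 arrays, 91 with trend and robust eBayes, 36 with the row covariate and 0 to 31 without an array. In LP rats there were 0, against 6 with the normexp background and 0 to 4 without an array. The median over all probes moved by over 0.1 from 0 only with the normexp background, between the days in NP rats (0.10).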
